A study of Arabidopsis thaliana with 6 samples.

Results

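Peaks of the MADS-domain transcription factor FRUITFULL (FUL) were examined at 7 genes of directional auxin transport in Arabidopsis thaliana. They are the protein kinase genes PID (AT2G34650) and WAG2 (AT3G14370), the efflux carrier genes PIN3 (AT1G70940), PIN4 (AT2G01420) and PIN7 (AT1G23080), and the influx carrier genes AUX1 (AT2G38120) and LAX1 (AT5G01240). A peak was counted at a gene when its summit lay in the gene or within 3 kb of either end. By this rule the 7 genes, of 27444 protein-coding genes, held 9 of the 3650 peaks listed for inflorescence meristems (IM) and 9 of the 3494 peaks listed for pistils.

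In both tissues a FUL-GFP fusion, expressed from the promoter of FUL itself (pFUL:FUL-GFP), was pulled down on anti-GFP microbeads and the bound DNA was sequenced. IM tissue was taken at 4 to 5 weeks from uninduced plants that also had the transgene 35S:AP1-GR and the mutations ap1-1 and cal-1. Pistil tissue covered stages 12 to 16 and had the mutation ful-1 besides the fusion; the ecotype was Ler/Col F2 throughout. There were 2 ChIP replicates and 1 input library for IM and the same numbers for pistil. The labels name ful-1 for the pistil plants only, so the IM plants may also hold FUL without the tag.

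Auxin moves from cell to cell in a direction set by its carriers. AUX1 and the LAX proteins bring auxin into the cell, and the long PIN proteins, placed on particular sides of the plasma membrane, let it out. PID and its relatives WAG1 and WAG2 are AGC kinases that phosphorylate the PIN proteins and change the side on which they act. Plants without PID form bare, pin-like inflorescence stems and misshapen gynoecia. In the fruit, PID and WAG2 are known as genes regulated in opposite directions by IND, the valve margin factor that FUL keeps out of the valves.

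Of the 7 genes, 5 had an IM summit and 5 a pistil summit, against 23.7% and 21.3% of all protein-coding genes. PID, PIN3, PIN7 and AUX1 had summits in both lists, LAX1 in the IM list only, PIN4 in the pistil list only, and WAG2 in neither. Of all genes, 15.3% had a summit in both lists. PID, PIN3 and PIN7 had at least 2 summits in each list and AUX1 had 2 in IM, where 3.55% and 3.34% of all genes had as many. The genes were chosen with results of these lists known, so the counts describe them and were not tested. Each list was called on the 2 replicates together, and no spread between replicates can be given for any value. Read depth is unknown here.

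**Figure D1:**
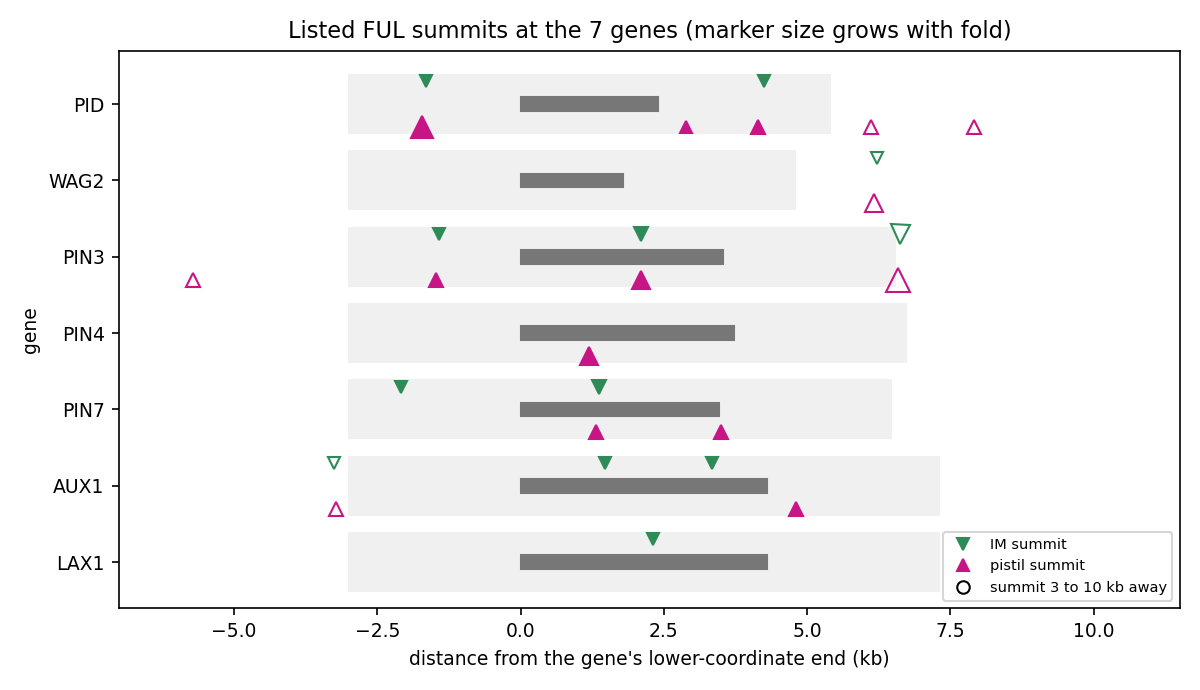
Listed FUL summits around the 7 genes, with the distance from the lower-coordinate end of each gene in kb on the horizontal axis. Dark bars are the genes, pale bars the window of 3 kb on each side, triangles pointing down IM summits and triangles pointing up pistil summits, larger for a higher fold; open triangles lie 3 to 10 kb from the gene. Summits stand inside PIN3, PIN4, PIN7, AUX1 and LAX1, on both sides of PID, and outside the window of WAG2.

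The values that follow are the authors': the fold enrichment at the summit, a linear ratio, and the −log10 p of the peak. A percentile is the share of peaks in the same list with a lower fold. Places in the 2 lists are given side by side and do not measure a change in binding, since the lists differ in length and end at different values. The IM list went down to a −log10 p of 22.4 and the pistil list to 34.4. Peak positions are on TAIR10. The gene table used here has no strand and no exons, so promoter, untranslated region and intron are not told apart, and the ends of a gene are named by their coordinates.

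PID, the gene of the set with the most peaks over both lists, was flanked by summits on both sides and had none inside. On its lower-coordinate side the IM summit lay 1651 bp from the gene, in a peak on chromosome 2 from 14587572 to 14588722. The pistil summit lay 1722 bp away, in a peak from 14587585 to 14588941, and the summits were 71 bp apart. The IM peak had a fold of 3.39 (percentile 33.8, −log10 p 38.5). The pistil peak had a fold of 8.31 (percentile 91.2, −log10 p 259.3), the highest fold of any peak at the 7 genes in either list. This site was thus in the lower part of the IM list by fold and had rank 308 of 3494 in the pistil list.

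Beyond the other end of PID the IM list gave 1 peak of 3057 bp (chromosome 2, 14591659 to 14594715), the widest at the 7 genes, with its summit 1846 bp from the gene. Its fold was 2.92 (percentile 7.21, −log10 p 24.0). The pistil list gave 2 peaks over the same stretch. The first ran from 14591615 to 14592924 with its summit 480 bp from PID (fold 3.52, rank 2447, −log10 p 63.7). The second ran from 14593104 to 14594488 with its summit 1745 bp away (fold 4.50, percentile 58.2, −log10 p 86.5) and 101 bp from the IM summit. The IM peak therefore overlapped both pistil peaks, and its listed summit coincided with the more distant of them. PID was the nearest protein-coding gene to all of these summits; AT2G34655 lay 2579 bp from the IM summit and 2680 bp from the second pistil summit. A pair of further pistil peaks 3708 and 5513 bp from PID (fold 3.77 for each) lay nearer to AT2G34655, at 717 and 110 bp, and had no IM partner.

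WAG2, which encodes a kinase related to PID, had no summit in the gene or within 3 kb in either list. The nearest was a site found in both lists, 4435 bp from the gene in IM and 4377 bp in pistil, beyond its higher-coordinate end. The IM peak (chromosome 3, 4803640 to 4804358) had a fold of 3.33 and the pistil peak (4803524 to 4804516) a fold of 6.60. Both summits lay inside another gene, AT3G14380.

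PIN3, an efflux carrier gene known for its part in tropic growth, had the same pair of sites in both lists. Outside the gene, on its lower-coordinate side, the IM summit was 1431 bp away (chromosome 1, 26741162 to 26741897; fold 3.55, percentile 41.2, −log10 p 52.2). The pistil summit was 1479 bp away (26741016 to 26741758; fold 4.26, percentile 53.1, −log10 p 72.6), 48 bp from that of IM. Inside PIN3 the summits of the lists were 1 bp apart. The internal IM peak (26744593 to 26745600) had a fold of 3.66 (percentile 46.1, −log10 p 40.9). The internal pistil peak (26744613 to 26745591) had a fold of 6.40 (percentile 81.3, −log10 p 159.0). The site inside the gene thus had the higher fold of the pair in each list. HB18, a homeobox gene, was also within 3 kb of the outer site, at 2844 bp in IM and 2796 bp in pistil, but PIN3 was nearer.

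A stronger site lay just beyond the 3 kb limit of PIN3. Its summit was 3090 bp from the gene in IM (26748907 to 26750070, fold 6.80, percentile 95.4) and 3053 bp in pistil (26748947 to 26749937, fold 9.37, percentile 94.3). It stood nearer to AT1G70944, at 306 and 269 bp. The member peaks closest to the limit from inside were that of PIN7 in IM, at 2082 bp, and the outer one of PID in IM, at 1846 bp. Just outside it, besides PIN3, lay a site on the lower-coordinate side of AUX1, 3257 bp away in IM (fold 3.56) and 3226 bp in pistil (fold 3.71), with no protein-coding gene within 3 kb.

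PIN4, an efflux carrier gene close in sequence to PIN3 and PIN7, had a single peak, inside the gene and in the pistil list alone (chromosome 2, 180713 to 181553). Its fold was 5.85 (percentile 76.8) and its −log10 p was 196.5, second only to the PID site among the member peaks. By fold it had rank 146 of the 1278 pistil peaks without an IM partner. No IM peak had its summit within 10 kb of PIN4. The numbering of peaks has gaps in both lists, so a weaker IM signal at this place could be absent from the list without being absent from the tissue.

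PIN7, another efflux carrier gene, had a site inside the gene in both lists and a different outer site in each. The internal IM peak (chromosome 1, 8181059 to 8182030) had a fold of 4.25, a percentile of 64.8 and a −log10 p of 48.7. This was the highest IM fold among the 7 genes and the only one above the median of the IM list. The internal pistil peak (8181052 to 8181906) had a fold of 3.93 (percentile 44.4, −log10 p 83.5), and its summit was 54 bp from that of IM. Outside the gene, the IM list had a peak 2082 bp away on the lower-coordinate side (8177758 to 8178544, fold 3.16, −log10 p 26.6). The pistil list had one 42 bp beyond the other end (8183315 to 8184037, fold 3.77, −log10 p 56.1). Neither outer peak overlapped a peak of the other list. AT1G23070 lay 2288 bp from the outer IM summit and AST91 1233 bp from the outer pistil summit, each farther than PIN7.

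The internal summits of the 3 PIN genes lay at like distances from the nearer end of their gene. They were 1424 bp (IM) and 1423 bp (pistil) from the higher-coordinate end of PIN3, 1373 bp (IM) and 1319 bp (pistil) from the lower-coordinate end of PIN7, and 1191 bp (pistil) from the lower-coordinate end of PIN4. The genes are 3530, 3462 and 3732 bp long. The nearer end was taken for each gene, so no distance could pass the middle of the gene. The other internal member summits, all in IM, were 1477 and 960 bp from the nearer end of AUX1 and 1995 bp from that of LAX1. The value of 1477 bp is close to those at the PIN genes, so such a distance was not particular to them. The likeness among the PIN genes was noticed after the values were seen and was not tested. Without strand it is not known here whether these ends are the starts of the genes.

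AUX1, the influx carrier gene known for root gravitropism, had low IM folds and broad peaks. One IM peak inside the gene (chromosome 2, 15973954 to 15975582) had a fold of 2.96 (percentile 8.90, −log10 p 25.4) and no pistil partner. The next (15975725 to 15978186, 2462 bp wide) had its summit inside the gene, 960 bp from the higher-coordinate end, with a fold of 3.03 (percentile 13.5, −log10 p 25.0). The pistil peak (15975834 to 15978054, 2221 bp wide) lay wholly within it, but its summit was outside the gene, 493 bp beyond that end. Its fold was 4.27 (percentile 53.7, −log10 p 75.5). The summits of these overlapping peaks were 1453 bp apart, whereas the median over all 2237 overlapping pairs of the lists was 44.0 bp and 5.01% of pairs were over 1000 bp apart. ATMAK3 was 704 bp from the pistil summit, farther than AUX1.

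The names of the AUX1 peaks end in a letter, which MACS2 adds when it finds more than 1 summit in a region, and no region was listed more than once in either file. Lettered names were borne by 27.2% of IM and 32.3% of pistil peaks in all. Among the member peaks they were the 3 IM peaks at AUX1 and on the higher-coordinate side of PID, and the 3 pistil peaks at AUX1 (1) and PID (2). For these, other summits of the same region are not in the lists. At PID, overlapping pairs with a lettered peak had summits 71, 101 and 1366 bp apart. The part of such names in the distance at AUX1 was not tested.

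LAX1, which encodes an influx carrier related to AUX1, had 1 peak, inside the gene and in the IM list alone (chromosome 5, 99390 to 100236). Its fold was 3.47, with a percentile of 37.2 and a −log10 p of 33.5, and its rank was 707 of the 1480 IM peaks without a pistil partner. AT5G01250 was 2336 bp from this summit. No pistil peak had its summit within 10 kb of LAX1.

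Counted over the set, 4 of the 7 genes had a summit inside the gene in IM (PIN3, PIN7, AUX1 and LAX1) and 3 of 7 in pistil (PIN3, PIN4 and PIN7). Of all protein-coding genes, 3.88% and 3.25% had one. Among genes between 1785 and 4305 bp long, the range of the 7, these shares were 5.17% and 4.09%. The nearest protein-coding gene was the member itself for 9 of 9 IM and 9 of 9 pistil peaks. Over all genes, no other gene was nearer in 46.8% of the IM and 48.3% of the pistil pairs of a gene and a summit within 3 kb.

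Folds at the 7 genes were in the lower part of the IM list and near the middle of the pistil list. In IM they ran from 2.92 to 4.25 with a median of 3.39, against 3.77 over the whole list, and 1 of 9 was above the list's median. In pistil they ran from 3.52 to 8.31 with a median of 4.27, against 4.10 over the list, and 6 of 9 were above its median. The median percentiles were 33.8 and 53.7. The peaks with the highest pistil percentiles were those at PID (91.2), PIN3 (81.3) and PIN4 (76.8). The IM peaks at the PID and PIN3 sites were at 33.8 and 46.1, and PIN4 had no IM peak.

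**Figure D2:**
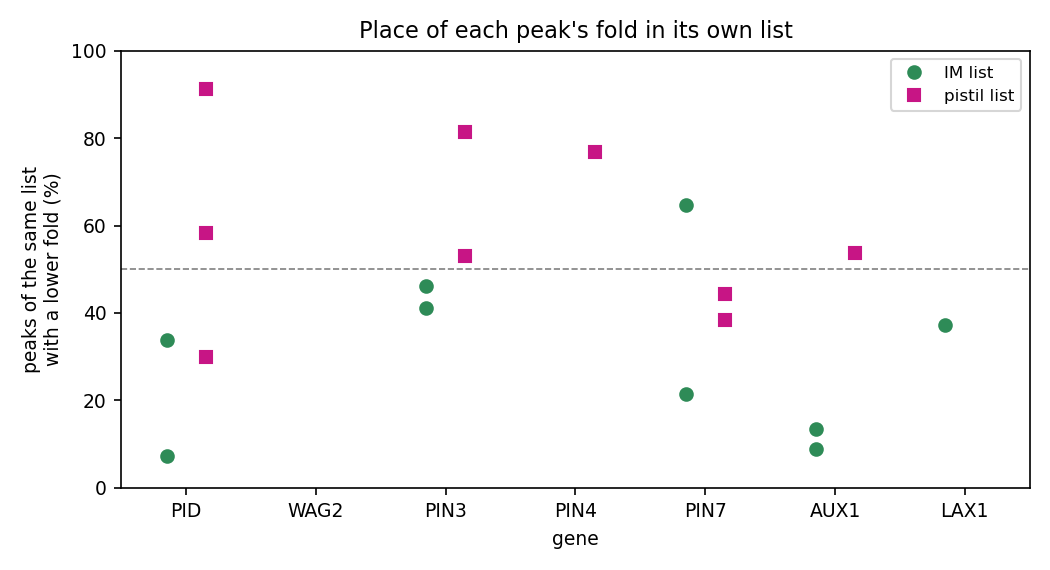
Share of peaks in the same list with a lower fold, in percent, for each peak at the 7 genes; circles are IM peaks, squares pistil peaks, and the dashed line marks the middle of a list. In IM only the internal PIN7 peak is above the middle, at 64.8, while in pistil the highest are at PID (91.2), PIN3 (81.3) and PIN4 (76.8).

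Of the member peaks, 6 of 9 in IM and 7 of 9 in pistil shared at least 1 bp with a peak of the other tissue, where 59.5% and 63.4% of all peaks did. The shares at the 7 genes were thus near those of the lists. Without a partner in IM were the peak at LAX1, the AUX1 peak of fold 2.96 and the outer peak at PIN7. In pistil they were the peak at PIN4 and the outer peak at PIN7. The 3 IM peaks had −log10 p values of 33.5, 25.4 and 26.6, all below the lowest value of the pistil list (34.4), and the 2 pistil peaks had values of 196.5 and 56.1, both above the lowest of the IM list (22.4). In all, 5 of the 9 IM peaks were below 34.4. With that value as the limit for both lists, 3 genes kept an IM peak (PID, PIN3 and PIN7), and AUX1 and LAX1 had none. The same −log10 p need not mean the same in both lists, whose medians were 42.7 (IM) and 73.9 (pistil). Inside PIN7 a fold of 4.25 went with 48.7 in IM, and a fold of 3.93 with 83.5 in pistil. This limit is thus not an equal standard for the 2 tissues. Whether LAX1 was bound in IM alone cannot be told from these values.

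**Figure D3:**
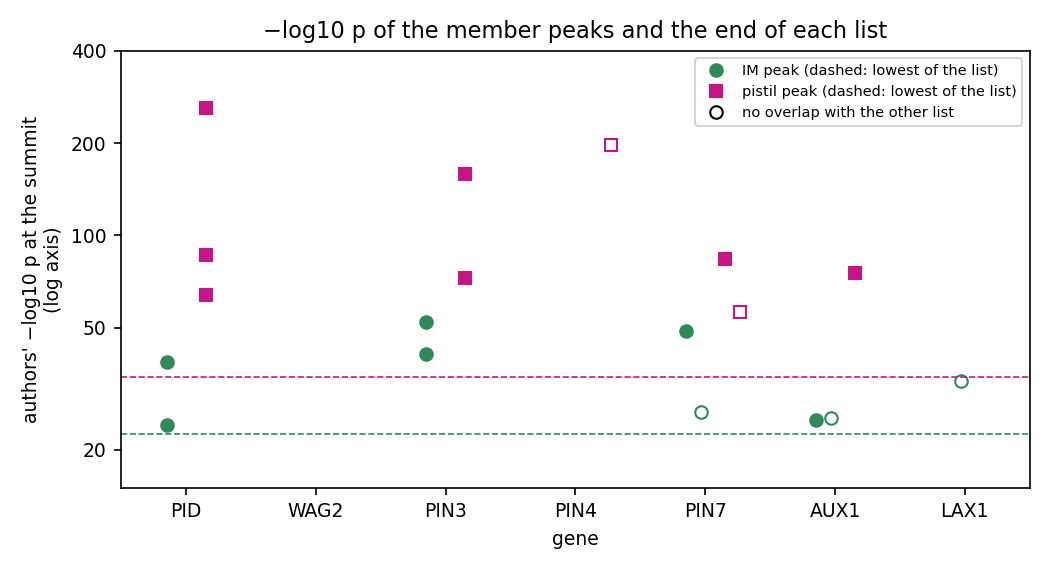
The authors' −log10 p at the summit of each peak at the 7 genes, on a log axis; circles are IM peaks, squares pistil peaks, open symbols peaks without overlap in the other list, and dashed lines the lowest value in each list (22.4 for IM and 34.4 for pistil). The open circles at PIN7, AUX1 and LAX1 are below the pistil line, and the open square at PIN4 is at 196.5.

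Other genes of auxin transport were set beside the 7 in 6 lists with 32 genes. Of these 32, 13 had a summit in IM and 9 in pistil (40.6% and 28.1%), 8 in both, and 18 in neither. The median percentile of their peaks was 50.2 in IM and 36.8 in pistil. Another gene was nearer more often than at the 7 genes: the listed gene was the nearest to 9 of its 15 IM peaks and 5 of 12 pistil peaks. Over all genes, no other gene was nearer in 46.8% of the IM and 48.3% of the pistil pairs. Of the PIN genes in these lists, PIN2, PIN5, PIN6 and PIN8, none of 4 had a summit within 3 kb in either list.

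Of the other influx carrier genes LAX3 had none, and LAX2 had the highest fold in each list among all 39 genes considered. Its IM peak (chromosome 2, 9037398 to 9038712) had a fold of 7.95 (rank 44) and its pistil peak (9037515 to 9038676) a fold of 11.3 (rank 66). The summits were 1382 and 1289 bp from LAX2 but 236 and 143 bp from GRP2B, so GRP2B was nearer.

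Of 7 other kinase genes, D6PKL3 had an IM peak of fold 5.82, 1816 bp away, with AT3G27590 at 20 bp. D6PKL1 had a pistil peak of fold 2.98, 427 bp away, with AT4G26600 at 248 bp. This D6PKL1 peak was near the end of the pistil list (percentile 4.41, −log10 p 34.8). WAG1, PID2, D6PK, D6PKL2 and PDK1, the kinase upstream of several AGC kinases, had none. The ABCB transporter genes, which encode auxin pumps, and TWD1, the gene of their immunophilin partner, all had an IM summit (4 of 4), and 2 of 4 had one in pistil. ABCB4 had an internal site in both lists (fold 4.95 in IM and 5.25 in pistil). ABCB19 had 2 IM peaks, with folds of 5.01 at 2833 bp and 4.20 inside the gene, and no pistil peak within 3 kb. ABCB1 had an IM peak of fold 3.77 at 2885 bp. At TWD1 the folds were 3.20 in IM and 3.09 in pistil, and AT3G21650 and AT3G21660 were nearer in both lists, with AT3G21670 also nearer in pistil.

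Of 7 PILS genes, whose products are carriers of the endoplasmic reticulum, PILS5 had an internal site in both lists (fold 3.16 in IM and 3.13 in pistil) and PILS7 an IM peak of fold 5.55 at 1492 bp, with MLO10 at 77 bp. PILS1, PILS2, PILS3, PILS4 and PILS6 had none. Of the 8 genes of NPY proteins and other partners of PID, 5 had a summit in IM and 4 in pistil. NPY1, which acts with PID in organ formation, had IM peaks of fold 3.25 and 3.42, at 81 and 2639 bp, and pistil peaks of fold 2.95 inside the gene and 3.82 at 1417 bp. NPY5 had an IM peak of fold 3.27, whose summit lay in HLS1, and pistil peaks of fold 3.53, 3.61 and 6.01, with HLS1 nearer to the first of these and AT4G37608 to the last. NPY4 had an internal IM peak of fold 3.36 and a pistil peak of fold 4.62 at 2499 bp, nearer to SNRK2.9, while NPY3 had an IM peak of fold 3.38 at 12 bp. TCH3, a calmodulin-like gene, had a site in both lists (4.43 in IM and 4.70 in pistil) that lay inside AT2G41090, with AT2G41082 and AT2G41080 also nearer. NPY2, PBP1 and RCN1 had none.

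**Figure D4:**
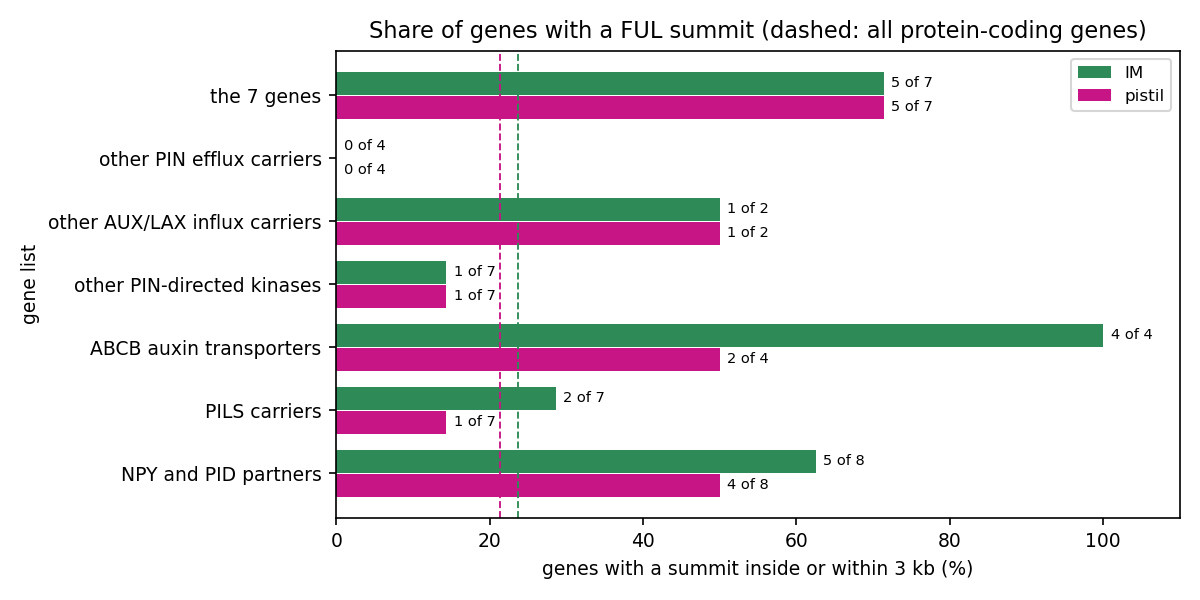
Share of genes, in percent, with a summit inside or within 3 kb, for the 7 genes and the 6 lists of other auxin transport genes; the upper bar of each pair is IM and the lower pistil, with counts at the bar ends, and dashed lines mark all protein-coding genes (23.7% for IM and 21.3% for pistil). The 7 genes are at 5 of 7 in each tissue and the other PIN genes listed at 0 of 4.

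Likeness of pattern was measured as the distance between genes in the percentiles of their highest folds in the 2 lists, among the genes of all lists with summits in both, over 2 tissues only. NPY5 was nearest to PID (14.1 percentile points, at 27.7 in IM and 78.5 in pistil) and PID was nearest to PIN3 (15.8 points). TCH3 was nearest to PIN7 (18.3 points, at 69.8 and 62.0) and NPY4 to AUX1 (19.7 points, at 32.0 and 60.6). Each of these members was compared with only 11 genes. Other genes were nearer to the peaks that set the values of NPY5 and TCH3 in both lists and of NPY4 in pistil.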

How the data were processed

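The data were 2 deposited peak lists in narrowPeak layout, 1 per tissue, from 2 ChIP replicates each; the peak names contain the word pooled, per the files. The fold is the authors' ratio of enrichment at each summit. The −log10 p values and the score (the truncated product of 10 and −log10 p) were likewise deposited. Per the submitters' processing notes, Bowtie 1.1.2, Picard 2.60, MACS2 2.1.0, deepTools and TAIR10 were used; the caller's settings and the rule that selected peaks are not given in the sources.

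Summits (start plus offset) were assigned to protein-coding genes of a RefSeq table (TAIR10.1) on 5 chromosomes, with Python 3.11.15 and pandas 2.3.3. The build differs in name, so gene coordinates are not printed. Summits inside genes were 29.5% (IM) and 26.0% (pistil) in place, and 56.3% to 64.1% when moved by 2 to 10 kb. The assignment was checked on 200 simulated summits. All 39 loci matched the table; one further gene is not reported here. No test was run, because each tissue had 1 pooled list. Planned motif and protein comparisons were not made: no sequence was used here. Named genes were the 7 members, the genes of the other lists, and some protein-coding genes within 3 kb of the peaks described, nearer or farther. Some sites 3 to 10 kb away were also given. Members and lists were chosen with earlier results of these data known. The tissue labels could not be checked against marker genes, since peaks hold no expression. Tissue and genotype cannot be told apart.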

Additional observations from a re-analysis of the deposited data

How the results depend on the processing

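Of 64 counts recomputed under alternatives, 41 stayed within 1.5 times the reported count and 23 did not. With folds above the list's median, 1 member gene and 1 member peak remained in IM, 0 member peaks were shared in either list, the other auxin transport genes with a peak numbered 7 (IM) and 5 (pistil), and all genes 3553 and 3195. With the pistil list's lowest −log10 p for both lists, IM had 3 member genes, 4 member peaks and 8 other genes, and 4 pistil member peaks were shared. Within 1 kb, IM had 5 member peaks, 3 of them shared, and pistil 4 shared; other genes numbered 6 and 5, and all genes 3803 and 3256. By the nearest gene alone, other genes numbered 7 and 4 and all genes 3229 and 2971. These settings kept fewer peaks, a narrower window or fewer genes per summit. Of 60 highest folds recomputed at member genes, 45 were the same, 7 differed and 8 had no peak left. Left without a peak were PID, PIN3, AUX1 and LAX1 in IM and PIN7 in pistil with folds above the median, AUX1 and LAX1 in IM with the common −log10 p, and PID in IM within 1 kb. The 7 differed with other windows or with any base of the peak in the window: PIN3 rose to 6.80 (IM) and 9.37 (pistil) within 5 kb, and PID in pistil fell to 3.52 within 1 kb. Leaving out a replicate was not possible, as the lists are pooled. No paired analysis was possible because the replicates of each tissue were merged in 1 list and no test was run. Depth is unknown and limits what an absent peak can show.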

Other observations

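Some of the highest folds near the other auxin transport genes lay outside the 3 kb window; these were picked out after their values were seen. A site 7267 bp from PBP1 in IM and 7245 bp in pistil, PBP1 being the gene of a PID-binding protein, had folds of 7.13 (rank 116) and 12.4 (rank 33), and its nearest gene was DFL1, an auxin-conjugating GH3 gene, at 1575 and 1597 bp. A pistil peak 8281 bp from NPY4 had a fold of 11.8 and no IM partner, with AT2G23067 at 1062 bp. A site 4071 bp from RCN1 in IM and 4076 bp in pistil, inside AT1G25510, had folds of 4.42 and 9.19.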
